A study of Mus musculus with 6 samples.

Results

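Chylomicrons are the particles in which enterocytes export dietary fat, and 10 genes of their assembly were followed here through total RNA sequencing of mouse small intestine. The genes were Mttp, Apob, Apoa1, Apoa4, Apoc2, Apoc3, Sar1b, Tm6sf2, Pla2g12b and Creb3l3, found by symbol among the 45777 genes of the deposited count table. All 10 were present, and all 10 passed the filter on low counts that left 18456 genes for testing. The study compared 3 libraries labelled DIO-zeta, given as overexpression of PRKCZ (protein kinase C zeta), with 3 labelled DIO-GFP, given as control, to find genes that differ after overexpression. The labels do not say what DIO stands for, what construct or vector was used, which cells carried it, which segment of the small intestine was taken, or the strain, age, sex and diet of the mice. They do not say that the libraries came from separate animals, so the p-values measure the spread between these samples only. With 3 libraries against 3, an exact permutation test cannot give a p below 0.1.

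In the enterocyte, the microsomal triglyceride transfer protein, encoded by Mttp and partnered by protein disulphide isomerase, loads lipid onto apolipoprotein B-48 as it enters the endoplasmic reticulum (ER), and Tm6sf2 and Pla2g12b act in the further lipidation of the particle there. The GTPase Sar1b starts the COPII coat under which the particle leaves the ER for the Golgi, and in rat intestine PKC zeta phosphorylates Sar1b in the budding of the carrier vesicle. Apoa1, Apoa4, Apoc2 and Apoc3 encode surface apolipoproteins, and Creb3l3 encodes an ER-anchored transcription factor that activates several of these genes in mice.

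The libraries held 77573133 to 93742978 counted reads. Prkcz, the gene said to be overexpressed, was measured at 82.5, 100.07 and 57.0 CPM (read counts per library scaled to a common size with trimmed mean of M-values, TMM, factors) in zeta-labelled libraries 2-1, 4-1 and 4-2, against 70.5, 98.6 and 96.9 CPM in GFP-labelled libraries 1-1, 1-4 and 3-1. Its log2 fold change was -0.15 with a standard error (SE) of 0.24 (edgeR's quasi-likelihood test, Benjamini-Hochberg adjusted p = 0.950; exact two-sided permutation p = 0.7). The mouse Prkcz row therefore does not show the overexpression named in the labels. The labels do not give the sequence of the construct, and a human or otherwise altered PRKCZ transcript need not be counted in that row. Each direction below is that of the libraries so labelled. The scaling factors were 1.00198, 1.05 and 1.19 in zeta-labelled libraries 2-1, 4-1 and 4-2, against 0.929, 0.974 and 0.881 in GFP-labelled libraries 1-1, 1-4 and 3-1, so they separated the groups too. Ribosomal and mitochondrial rows took 2.92% to 10.7% of the reads.

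All 10 genes had lower mean levels in the zeta-labelled libraries, at 33.6% (Apoa4) to 75.6% (Sar1b) of the GFP-labelled mean CPM. None reached the threshold of 0.05 after Benjamini-Hochberg adjustment of edgeR's quasi-likelihood p-values, and neither did any other gene (0 of 18456, 0%; lowest adjusted value 0.858). Without adjustment, 9 of the 10 were lower with a p under 0.05, all but Pla2g12b, beside 567 lower genes (3.07%) and 445 higher genes (2.41%) among those tested. For 6 of the 10, namely Mttp, Apoa1, Apoc3, Sar1b, Tm6sf2 and Creb3l3, every zeta-labelled library lay below every GFP-labelled library, which held for 5.66% of all genes tested. The median log2 fold change of the 10 was -0.93, against 0.035 over all genes tested, of which 45.7% lay below 0. Abundant genes leaned lower as a whole. Among the 4229 genes with a mean of at least 34.0 CPM, that of the least abundant of the 10, 63.6% had a fold change below 0, their median was -0.08, and 12.8% were lower with ranges that did not overlap. The 10 genes were chosen with earlier results of these data known, so setting them beside these shares is a description and not a test. The tissue is a mixture of cells, so fewer enterocytes and less RNA per enterocyte cannot be told apart in any of these values.

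**Figure D1:**
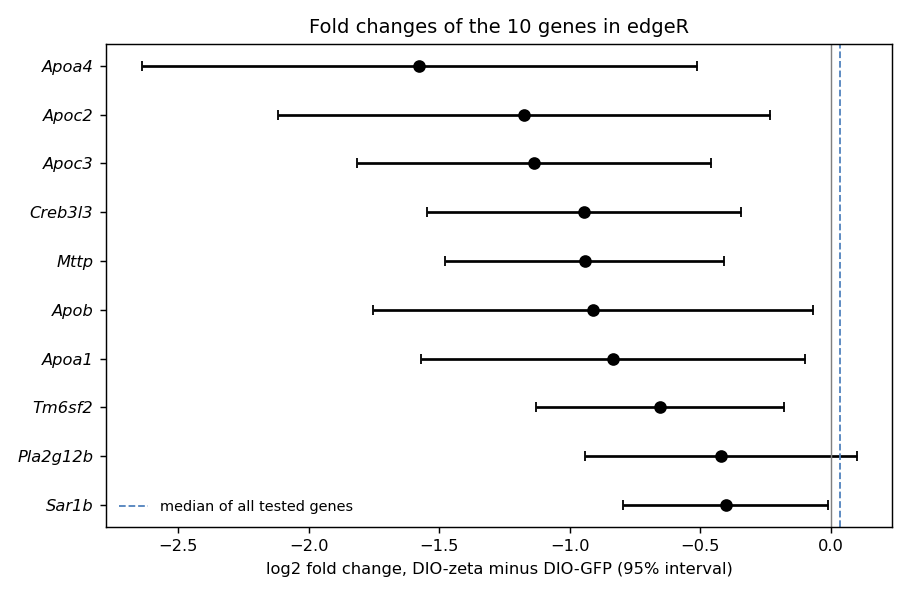
Log2 fold change of each of the 10 genes (zeta-labelled minus GFP-labelled libraries, n = 3 each) with its 95% interval from edgeR; the dashed line is the median of all tested genes, 0.035. All 10 points lie below 0, from -1.58 for Apoa4 to -0.40 for Sar1b, and the interval of Pla2g12b reaches above 0.

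As a group, the 10 genes supplied 1.44%, 1.79% and 1.002% of the protein-coding reads in zeta-labelled libraries 2-1, 4-1 and 4-2, against 2.68%, 2.02% and 2.39% in GFP-labelled libraries 1-1, 1-4 and 3-1. Apob and Apoa1 alone made up 66.9% to 84.7% of these reads. On the deposited TPM scale, which divides by transcript length and so allows levels of different genes to be set side by side, Apoa1 stood first in both groups with 4606 ± 1446 TPM in zeta-labelled and 7202 ± 318 TPM in GFP-labelled libraries (SD, n = 3 each). Apob followed in zeta-labelled libraries with 582 ± 173 TPM, against 934 ± 284 TPM in GFP-labelled libraries. Apoa4 had 548 ± 159 TPM in zeta-labelled and 1428 ± 899 TPM in GFP-labelled libraries, which put it second in GFP-labelled libraries by a margin inside its spread. Mttp came next, with 342 ± 75.4 TPM in zeta-labelled and 565 ± 91.8 TPM in GFP-labelled libraries, and its range overlapped with that of its upper neighbour in each group. These 4 were the most abundant of the 10 per length in both groups.

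The lower part of the order ran from Sar1b (196 ± 14.4 TPM in zeta-labelled, 223 ± 13.3 TPM in GFP-labelled libraries) through Tm6sf2 (148 ± 26.7 TPM in zeta-labelled, 201 ± 15.0 TPM in GFP-labelled libraries) and Creb3l3 (111 ± 31.1 TPM in zeta-labelled, 188 ± 59.3 TPM in GFP-labelled libraries). Pla2g12b had 69.8 ± 11.6 TPM in zeta-labelled and 81.8 ± 8.44 TPM in GFP-labelled libraries. The C apolipoproteins were lowest by mean in zeta-labelled libraries, where Apoc3 had 53.6 ± 15.6 TPM, against 104 ± 29.5 TPM in GFP-labelled libraries. Apoc2 had 41.4 ± 17.0 TPM in zeta-labelled and 82.2 ± 39.7 TPM in GFP-labelled libraries. In the zeta-labelled order, neighbours whose ranges did not overlap were Apoa1 and Apob, Mttp and Sar1b, Sar1b and Tm6sf2, and Creb3l3 and Pla2g12b. In the GFP-labelled order, only Apoa1 and Apoa4, and Mttp and Sar1b, were separated in this way.

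**Figure D2:**
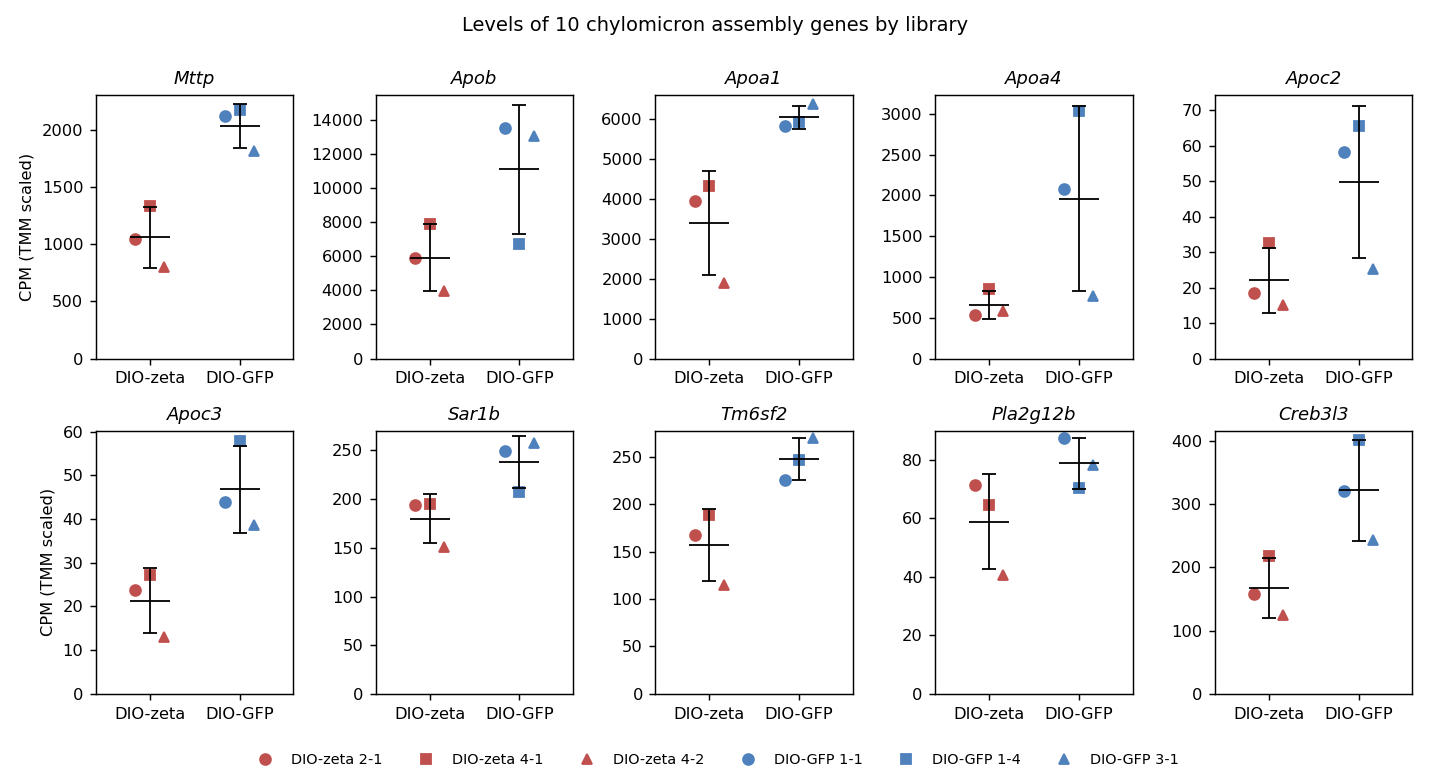
CPM of each gene in the 6 libraries (points; marker shape gives the library), with the group mean and SD as bars; each vertical axis starts at 0 and has its own scale. The groups do not overlap for Mttp, Apoa1, Apoc3, Sar1b, Tm6sf2 and Creb3l3, while GFP-labelled library 3-1 lies among the zeta-labelled libraries for Apoa4 and Apoc2 and library 1-4 does so for Apob and Pla2g12b.

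Lipid loading came first in the order of assembly. Mttp (Entrez gene 17777; mm10 chromosome 3, 138089855 to 138143418) had 1045, 1331 and 798 CPM in zeta-labelled libraries 2-1, 4-1 and 4-2, against 2119.9, 2170.5 and 1813 CPM in GFP-labelled libraries 1-1, 1-4 and 3-1. The highest zeta-labelled value was thus well below the lowest GFP-labelled value. The means were 1058 ± 267 CPM in zeta-labelled and 2034 ± 193 CPM in GFP-labelled libraries (SD, n = 3 each), and edgeR put the log2 fold change at -0.94, with an SE of 0.23 and a 95% interval from -1.48 to -0.41. The unadjusted p was 0.00359, the 68th smallest of the genes tested, and the adjusted p was 0.858 (edgeR's quasi-likelihood test, Benjamini-Hochberg). DESeq2, run as an alternative, did call Mttp, with a log2 fold change of -0.96 and an adjusted p of 0.0419, within a range of 0.0419 to 1.00 over the alternatives. P4hb, the protein disulphide isomerase subunit of the same complex, had 1323 ± 186 CPM in zeta-labelled and 1830.0 ± 198 CPM in GFP-labelled libraries, a log2 fold change of -0.47 (SE 0.20). The log2 ratio of Mttp to P4hb differed by -0.50, lower in zeta-labelled libraries without overlap (exact two-sided permutation p = 0.1, the smallest possible).

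Tm6sf2, an ER and Golgi membrane protein needed for loading triglyceride onto apolipoprotein B particles (Entrez 107770; chromosome 8, 70072924 to 70080066), had 168, 189 and 115 CPM in zeta-labelled libraries 2-1, 4-1 and 4-2, against 226, 246 and 269.6 CPM in GFP-labelled libraries 1-1, 1-4 and 3-1. The groups did not overlap, and its log2 fold change, -0.65, had an SE of 0.21 (95% interval -1.13 to -0.18; unadjusted p = 0.0131, edgeR). Pla2g12b, a catalytically inactive member of the phospholipase A2 family that acts in lipoprotein lipidation in the ER lumen (Entrez 69836; chromosome 10, 59403420 to 59421976), had 71.5, 64.4 and 40.5 CPM in zeta-labelled libraries, against 87.6, 70.4 and 78.3 CPM in GFP-labelled libraries. Here zeta-labelled library 2-1 lay above GFP-labelled library 1-4, and the log2 fold change came to -0.42 (SE 0.23; 95% interval -0.94 to 0.10). It was the only one of the 10 whose unadjusted p, 0.0988 in edgeR, missed 0.05, and its fold change was -0.21 without zeta-labelled library 4-2 and -0.23 on log2(TPM + 1).

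Apob encodes the structural protein of the particle (Entrez 238055; chromosome 12, 7977629 to 8016839). It had 5876, 7873 and 3952 CPM in zeta-labelled libraries 2-1, 4-1 and 4-2, against 13533, 6734 and 13033 CPM in GFP-labelled libraries 1-1, 1-4 and 3-1. GFP-labelled library 1-4 was the low value of its group and lay below zeta-labelled library 4-1. The log2 fold change, -0.91, had a 95% interval of -1.76 to -0.07 (SE 0.37; unadjusted p = 0.0374, adjusted p = 0.877 in edgeR's quasi-likelihood test with Benjamini-Hochberg adjustment). The log2 ratio of Mttp to Apob differed by -0.07 between the groups and that of Apob to Apoa1 by 0.021 (exact two-sided permutation p = 1 and 0.9).

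Among 16 genes of B-48 mRNA editing, folding and lipidation, 14 had a fold change below 0 and 2 above, with a median of -0.24. Below 0 were 45.7% of all genes tested and 63.6% of the 4229 abundant genes. Without overlap 8 were lower, beside 5.66% of all genes and 12.8% of the abundant genes. At an unadjusted p under 0.05 in edgeR 6 were lower, beside 3.07% of all genes, and none passed the adjusted threshold. Apobec1, the deaminase that edits Apob mRNA to yield B-48, averaged 40.1 ± 11.8 CPM in zeta-labelled and 66.7 ± 13.7 CPM in GFP-labelled libraries (log2 fold change -0.73, SE 0.26). Rbm47, a cofactor of that editing, averaged 159.6 ± 13.0 CPM in zeta-labelled and 237 ± 21.3 CPM in GFP-labelled libraries (log2 fold change -0.57, SE 0.15). Lpcat3, which supplies polyunsaturated phospholipid for lipoprotein lipidation, averaged 141 ± 9.83 CPM in zeta-labelled and 210.4 ± 16.5 CPM in GFP-labelled libraries (log2 fold change -0.58, SE 0.14). Cideb, a lipid droplet and ER protein with a part in the lipidation of apolipoprotein B particles, averaged 16.7 ± 5.998 CPM in zeta-labelled and 31.0 ± 6.40 CPM in GFP-labelled libraries (log2 fold change -0.89, SE 0.30). These 4 were lower without overlap between the groups.

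The surface apolipoproteins included the most negative fold changes. Apoa1, Apoc3 and Apoa4 lie in a cluster on chromosome 9 (46228630 to 46230469, 46233050 to 46235636 and 46240844 to 46243458; Entrez 11806, 11814 and 11808). Apoa1, the main apolipoprotein of high-density lipoprotein and a chylomicron component, had 3959, 4318 and 1905 CPM in zeta-labelled libraries 2-1, 4-1 and 4-2, against 5843.5, 5924 and 6379.8 CPM in GFP-labelled libraries 1-1, 1-4 and 3-1. It was nearly even across the GFP-labelled libraries, with a coefficient of variation of 4.78%, whereas the coefficient was 38.4% in the zeta-labelled libraries with library 4-2 the low one. The log2 fold change, -0.83, had a 95% interval of -1.57 to -0.10 (SE 0.32; unadjusted p = 0.0310, edgeR), and was -0.54 without zeta-labelled library 4-2.

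Apoc3, whose protein inhibits lipoprotein lipase, had 23.7, 27.2 and 12.9 CPM in zeta-labelled libraries 2-1, 4-1 and 4-2, against 43.8, 57.9 and 38.5 CPM in GFP-labelled libraries 1-1, 1-4 and 3-1. The groups did not overlap, and its log2 fold change, -1.14, had an SE of 0.29 (95% interval -1.82 to -0.46; unadjusted p = 0.00470, edgeR). Apoa4, a fat-responsive apolipoprotein of the intestine, had 538, 857 and 579.9 CPM in zeta-labelled libraries, against 2081, 3034 and 772 CPM in GFP-labelled libraries. Library 3-1 stood apart from the other GFP-labelled libraries and lay among the zeta-labelled values. Its log2 fold change, -1.58, was the most negative of the 10 in this fit and had the widest interval (SE 0.46, 95% interval -2.64 to -0.51; unadjusted p = 0.00918, edgeR). Apoa4 was the most negative of the 10 in 14 of 16 alternatives. Without GFP-labelled library 1-4, however, Apoa4 stood at -1.11 and Apob at -1.17. Limma voom with sample quality weights gave Apoa4 -0.95 and Apoc3 -1.01.

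Within the cluster the genes did not keep one ratio across libraries. The log2 ratio of Apoa4 to Apoa1 was -2.88, -2.33 and -1.72 in zeta-labelled libraries 2-1, 4-1 and 4-2, against -1.49, -0.97 and -3.05 in GFP-labelled libraries 1-1, 1-4 and 3-1. Both the highest and the lowest ratio thus belonged to GFP-labelled libraries, and the difference of -0.48 between the groups had an exact two-sided permutation p of 0.5. The differences were -0.27 for Apoc3 to Apoa1 and -0.21 for Apoa4 to Apoc3 (exact permutation p = 0.3 and 0.7). At these numbers of libraries, unequal change within the cluster was not detectable.

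Apoc2 encodes the activator of lipoprotein lipase (Entrez 11813; chromosome 7, 19671579 to 19677941). It had 18.5, 32.5 and 15.0 CPM in zeta-labelled libraries 2-1, 4-1 and 4-2, against 58.3, 65.6 and 25.2 CPM in GFP-labelled libraries 1-1, 1-4 and 3-1. As with Apoa4, GFP-labelled library 3-1 was low, here below zeta-labelled library 4-1. The log2 fold change, -1.18, had a 95% interval of -2.12 to -0.23 (SE 0.41; unadjusted p = 0.0206, edgeR). With limma voom and sample quality weights it was -0.77. A readthrough gene, Gm44805, overlaps Apoc2 on the annotation and had 393 reads in the 6 libraries, against 18266 for Apoc2. Apoe lies in the same apolipoprotein cluster and is made by many cell types. It averaged 153 ± 23.5 CPM in zeta-labelled and 143 ± 57.5 CPM in GFP-labelled libraries (log2 fold change 0.09, SE 0.28). The log2 ratio of Apoc2 to Apoe differed by -1.29 without overlap between the groups (exact two-sided permutation p = 0.1, the smallest possible).

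Of 15 further apolipoprotein and related genes, 9 were tested, 3 with a fold change below 0 and 6 above, with a median of 0.20. Apol7a, at 36.7 ± 11.9 CPM in zeta-labelled and 58.3 ± 9.64 CPM in GFP-labelled libraries (log2 fold change -0.67, SE 0.26), was the only one lower without overlap, beside 5.66% of all genes tested. Apoa5, Apoc4, Apom, Apof and Saa2 had 12 to 72 reads each over all 6 libraries and were not tested, and Apoa1bp was not found by that symbol.

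To show the DNA next to 3 of these apolipoprotein genes, the stretches before their start sites are given below, from the RefSeq promoter table of build GRCm38.p6, the assembly of mm10. A window of 250 bases before a start was found for 8 of the 10 genes. Each printed stretch is the longest run of its window outside annotated exons, the 10 genes, Apoc4 and Trmt10a. The Apoc2 stretch still lies within the span of the readthrough gene Gm44805 (chromosome 7, 19671579 to 19681460). The stretches are Apob at chr12:7977427-7977628 on the plus strand, Apoa1 at chr9:46228380-46228579 on the plus strand and Apoc2 at chr7:19677942-19678082 on the minus strand, each written 5′ to 3′, with matches to searched motifs in capitals.
Apob: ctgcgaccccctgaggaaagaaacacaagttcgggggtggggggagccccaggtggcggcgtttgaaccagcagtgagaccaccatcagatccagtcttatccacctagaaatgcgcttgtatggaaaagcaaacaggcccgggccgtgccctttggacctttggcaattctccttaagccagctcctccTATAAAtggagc
Apoa1: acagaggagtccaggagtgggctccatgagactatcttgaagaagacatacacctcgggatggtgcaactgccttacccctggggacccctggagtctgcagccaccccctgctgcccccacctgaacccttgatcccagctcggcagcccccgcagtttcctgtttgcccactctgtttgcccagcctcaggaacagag
Apoc2: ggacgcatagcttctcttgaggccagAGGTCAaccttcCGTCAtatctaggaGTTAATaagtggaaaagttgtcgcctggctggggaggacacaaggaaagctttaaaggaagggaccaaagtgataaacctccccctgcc
The motifs searched in the full windows were TATAAA on the gene's strand, and on both strands CAAAGTCCA (a binding sequence of HNF4), AGGTCA (an element of nuclear receptors), GTTAAT (of HNF1), AGATAA (of GATA factors) and TGACG (the core of the element bound by the CREB family, of which Creb3l3 is a distant member).

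In the Apob stretch the capitals mark TATAAA, which begins at -60 (positions are counted back from the start that the promoter table gives, chromosome 12 position 7977677, not from the gene's first annotated base) and which 7.59% of all 32851 promoter windows hold. In the Apoc2 stretch they mark AGGTCA at -115 (14.02% of windows), TGACG on the opposite strand at -103, written there as its reverse complement CGTCA (17.8% of windows), and GTTAAT at -89 (6.43% of windows). The Apoa1 stretch holds none of the 6. Over the 9 windows of the 8 genes there were 8 matches, none overlapping another. Besides those printed, Mttp holds TGACG at -28, and the window of an internal Creb3l3 start holds AGGTCA at -202, AGATAA at -138 and TGACG at -239. Both of these windows lie wholly within annotated exons or genes. No window of the 8 genes holds CAAAGTCCA, which 0.384% of all windows hold. A match is a run of letters and does not show binding.

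Export from the ER was represented by Sar1b (Entrez 66397; chromosome 11, 51763663 to 51791953). It had 194, 195 and 151 CPM in zeta-labelled libraries 2-1, 4-1 and 4-2, against 249, 207 and 257 CPM in GFP-labelled libraries 1-1, 1-4 and 3-1. The groups did not overlap, but the nearest libraries of the groups, zeta-labelled 4-1 and GFP-labelled 1-4, lay close together. The log2 fold change of -0.40 was the smallest in size of the 10 (SE 0.17, 95% interval -0.80 to -0.01; unadjusted p = 0.0455, adjusted p = 0.902 in edgeR's quasi-likelihood test with Benjamini-Hochberg adjustment). On log2(TPM + 1) the fold change of Sar1b was -0.18. Its paralogue Sar1a averaged 96.1 ± 7.58 CPM in zeta-labelled and 95.6 ± 19.2 CPM in GFP-labelled libraries (log2 fold change 0.0071, SE 0.18). The log2 ratio of Sar1b to Sar1a differed by -0.43 without overlap (exact two-sided permutation p = 0.1, the smallest possible). The nearest libraries were again close, at 1.11 in zeta-labelled library 2-1 and 1.14 in GFP-labelled library 3-1.

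Of 25 tested genes of COPII coats, cargo export and ER-to-Golgi transport, 22 had a fold change below 0 and 3 above, with a median of -0.22. Below 0 were 45.7% of all genes tested and 63.6% of the 4229 abundant genes. Without overlap 6 were lower, beside 5.66% of all genes and 12.8% of the abundant genes. At an unadjusted p under 0.05 in edgeR 2 were lower, beside 3.07% of all genes, and none passed the adjusted threshold. Sec24d, a cargo adaptor of the coat, averaged 66.1 ± 13.5 CPM in zeta-labelled and 105 ± 27.4 CPM in GFP-labelled libraries (log2 fold change -0.67, SE 0.24). Sec31a, of the outer coat, averaged 95.9 ± 2.95 CPM in zeta-labelled and 119.99 ± 9.74 CPM in GFP-labelled libraries (log2 fold change -0.32, SE 0.14). The Rab GTPases Rab1a and Rab1b, which act in ER-to-Golgi traffic, had log2 fold changes of -0.27 and -0.26 (SE 0.15 each).

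Creb3l3 (Entrez 208677; chromosome 10, 81084329 to 81098872) had 157, 219 and 125 CPM in zeta-labelled libraries 2-1, 4-1 and 4-2, against 319.98, 402 and 243 CPM in GFP-labelled libraries 1-1, 1-4 and 3-1. The groups did not overlap, with zeta-labelled 4-1 and GFP-labelled 3-1 nearest each other. The log2 fold change, -0.95, had a 95% interval of -1.55 to -0.35 (SE 0.26; unadjusted p = 0.00665, edgeR). Among 21 transcription factors and coactivators with a role in apolipoprotein gene expression, 16 had a fold change below 0 and 5 above, with a median of -0.16. Without overlap 3 were lower, beside 5.66% of all genes tested and 12.8% of the 4229 abundant genes. Only 1 was higher without overlap, beside 4.72% of all genes tested. Gata4, which sets proximal intestinal identity, averaged 0.978 ± 0.209 CPM in zeta-labelled and 6.24 ± 4.05 CPM in GFP-labelled libraries (log2 fold change -2.67, SE 0.58), and Gata6 averaged 33.0 ± 3.87 CPM in zeta-labelled and 50.1 ± 7.29 CPM in GFP-labelled libraries (log2 fold change -0.60, SE 0.17). Hnf4a, a nuclear receptor that drives apolipoprotein genes, averaged 446 ± 52.7 CPM in zeta-labelled and 559 ± 44.8 CPM in GFP-labelled libraries (log2 fold change -0.33, SE 0.17). Nr5a2, a nuclear receptor of the gut and liver, was the one higher without overlap, at 52.9 ± 7.97 CPM in zeta-labelled and 42.8 ± 2.15 CPM in GFP-labelled libraries (log2 fold change 0.31, SE 0.16).

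Receptors, lipases and transporters that act on lipoproteins after secretion were mixed. Of 13 tested genes, 8 had a fold change below 0 and 5 above, with a median of -0.07, and Lcat, with 28 reads in all, was not tested. Abca1, which loads cholesterol onto apolipoprotein A-I, averaged 80.5 ± 21.1 CPM in zeta-labelled and 149 ± 25.0 CPM in GFP-labelled libraries (log2 fold change -0.89, SE 0.23). Lrp1, a receptor for lipoprotein remnants, averaged 223 ± 39.7 CPM in zeta-labelled and 381 ± 122 CPM in GFP-labelled libraries (log2 fold change -0.77, SE 0.26). No gene of the 5 further lists passed the adjusted threshold in edgeR, with adjusted p-values of the genes named from 0.858 to 0.996.

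The epithelial content of the samples was set beside these levels. Relative to the mean log2 CPM of 9 genes of the whole epithelium (Epcam, Cdh1, Krt8, Krt18, Krt19, Cdh17, Cldn7, Elf3 and Vil1), all 10 genes were lower in zeta-labelled libraries, with a median difference of -0.73 that was -0.45 without zeta-labelled library 4-2. The 9-gene mean itself differed by -0.21 with overlapping ranges. The 9 genes had a median fold change of -0.31, with 7 below 0 and 2 above (Krt18 at 0.25 and Krt19 at 0.15). On CPM 4 of the 9 were lower without overlap, beside 5.66% of all genes tested and 12.8% of the 4229 abundant genes. Relative to the 9-gene mean, Mttp (-0.76), Apoa1 (-0.71), Apoc3 (-0.98) and Tm6sf2 (-0.47) were lower without overlap. Each had an exact two-sided permutation p of 0.1, the smallest possible. On this scale 1.40% of all genes tested and 2.29% of the abundant genes were lower without overlap. Creb3l3 and Sar1b, whose CPM ranges did not overlap, overlapped on this scale. With fewer libraries more genes separate by construction. Without zeta-labelled library 4-1 the count without overlap was 7, beside 2.67% of all genes and 4.28% of the abundant genes. Without GFP-labelled library 3-1 it was also 7, beside 3.57% of all genes and 6.29% of the abundant genes.

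The same was done with 14 markers of mature enterocytes, of which Vil1 is also among the 9. The marker mean itself was lower in zeta-labelled libraries, at 9.73, 10.5 and 9.12 log2 CPM in libraries 2-1, 4-1 and 4-2. It was 10.7, 10.8 and 10.6 log2 CPM in GFP-labelled libraries 1-1, 1-4 and 3-1. All 14 markers had a fold change below 0, 8 of them without overlap. On CPM 5.66% of all genes tested and 12.8% of the 4229 abundant genes were lower without overlap. The median fold change of the 14 was -0.64, beside -0.93 for the 10 genes. Fold changes of the 14 ran from -2.37 (Lct, the lactase gene) and -1.04 (Fabp2) to -0.26 (Sis). The marker mean differed by -0.92 with all 14 and by -0.71 without Lct. Relative to the mean of the 14, 6 of the 10 genes were lower and none was without overlap (0.0867% of all genes tested), with a median difference of -0.021. Relative to the 13 markers other than Lct, 7 were lower with a median difference of -0.23, and Apoc3 was lower without overlap. Leaving out Lct was chosen after seeing the data. With any other single marker left out instead, the median difference lay between -0.037 (without Fabp2) and 0.026 (without Sis). Mttp differed by -0.05, Apob by 0.016 and Apoa1 by -0.0044 relative to all 14, while Apoa4 differed by -0.48 and Sar1b by 0.51. Both the genes of chylomicron assembly and the enterocyte markers had lower values in the zeta-labelled libraries, and the part of enterocyte number or maturity in the result was not tested.

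**Figure D3:**
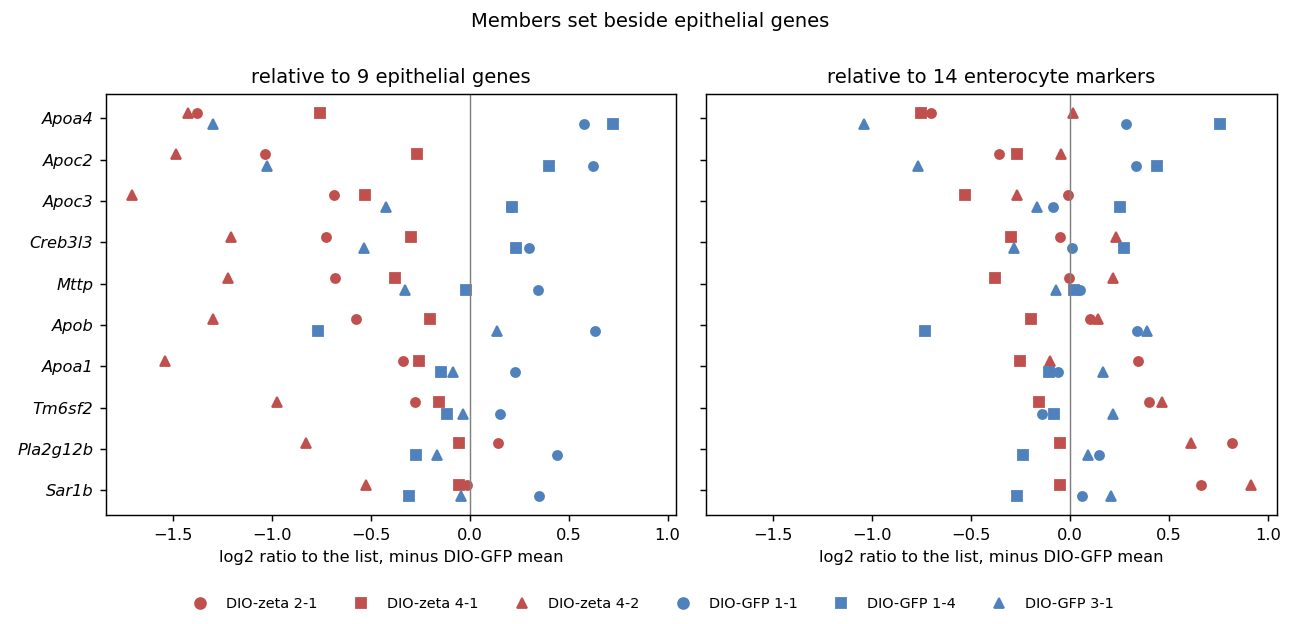
Log2 level of each gene in each library (points) relative to 9 epithelial genes (left) and to 14 enterocyte markers (right), minus the GFP-labelled mean. Relative to the epithelial genes the group means lie apart by a median of -0.73, and relative to the enterocyte markers by a median of -0.021. The latter is -0.23 with Lct left out of the markers and -0.037 to 0.026 with any other single marker left out (not drawn).

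Other cell types and gut regions also varied between libraries. Markers of hepatocytes, cells that share apolipoproteins with the enterocyte, summed to 55.8, 69.6 and 63.2 CPM in zeta-labelled libraries 2-1, 4-1 and 4-2, against 41.8, 44.1 and 60.9 CPM in GFP-labelled libraries 1-1, 1-4 and 3-1. Serpina1b alone had 35.4 to 43.5 CPM in zeta-labelled and 27.6 to 49.7 CPM in GFP-labelled libraries. Of the 9 tested 8 were higher, and 3 (Fga, Fgb and F2) were higher without overlap, at no more than 1.29 CPM. Alb, the defining one, had 9 reads in all and 0 in 4 libraries. Smooth muscle markers summed to 949 to 1199.7 CPM in zeta-labelled and 600.5 to 1444 CPM in GFP-labelled libraries, and all 8 had a fold change below 0. Leukocyte markers summed to 257 to 492 CPM in zeta-labelled and 140.1 to 293 CPM in GFP-labelled libraries, 9 of 10 with a fold change above 0. Secretory cell markers summed to 12400 to 17179 CPM in zeta-labelled and 12302 to 20211 CPM in GFP-labelled libraries. Among markers of the proximal small intestine other than the 10 genes, 10 of 11 had a fold change below 0 with a median of -0.65. Of 11 distal markers 10 had a fold change below 0, also with a median of -0.65. Proximal fold changes ran from -2.67 (Gata4) to 0.095 (Slc40a1), and distal ones from -2.64 (Fgf15) to 0.28 (Slc10a2). The proximal markers summed to 429, 627 and 249 CPM in zeta-labelled libraries 2-1, 4-1 and 4-2. In GFP-labelled libraries 1-1, 1-4 and 3-1 they summed to 798, 1147 and 516 CPM. Distal markers summed to 9778, 10900 and 7969 CPM in those zeta-labelled and 12463, 10759.5 and 15187 CPM in those GFP-labelled libraries. Mesothelium markers, of the outer lining of the gut wall, summed to 2.62, 3.33 and 1.67 CPM in zeta-labelled libraries 2-1, 4-1 and 4-2, against 15.5, 6.15 and 12.1 CPM in GFP-labelled libraries 1-1, 1-4 and 3-1; all 4 (Msln, Upk3b, Lrrn4 and Wt1) had a fold change below 0, from -2.64 to -1.57, and the first 3 were lower without overlap. Adipocyte markers summed to 45.4 to 74.6 CPM in zeta-labelled and 67.7 to 100.2 CPM in GFP-labelled libraries, 2 of 6 with a fold change below 0 and none without overlap. Over all genes tested, 5.66% were lower and 4.72% were higher without overlap. The part of these cell types and regions in the values of the 10 genes was not tested.

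Across libraries the 10 genes followed a common order with exceptions. Zeta-labelled library 4-2 was lowest for 9 of the 10, with Apoa4 lowest in zeta-labelled library 2-1. The mean deviation of the 10 on the log2 scale was -0.38, -0.07 and -0.90 in zeta-labelled libraries 2-1, 4-1 and 4-2, against 0.56, 0.56 and 0.23 in GFP-labelled libraries 1-1, 1-4 and 3-1. Zeta-labelled library 4-1 was thus nearest the GFP-labelled libraries, and GFP-labelled library 3-1 nearest the zeta-labelled ones. The enterocyte marker mean was also lowest in zeta-labelled library 4-2.

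**Figure D4:**
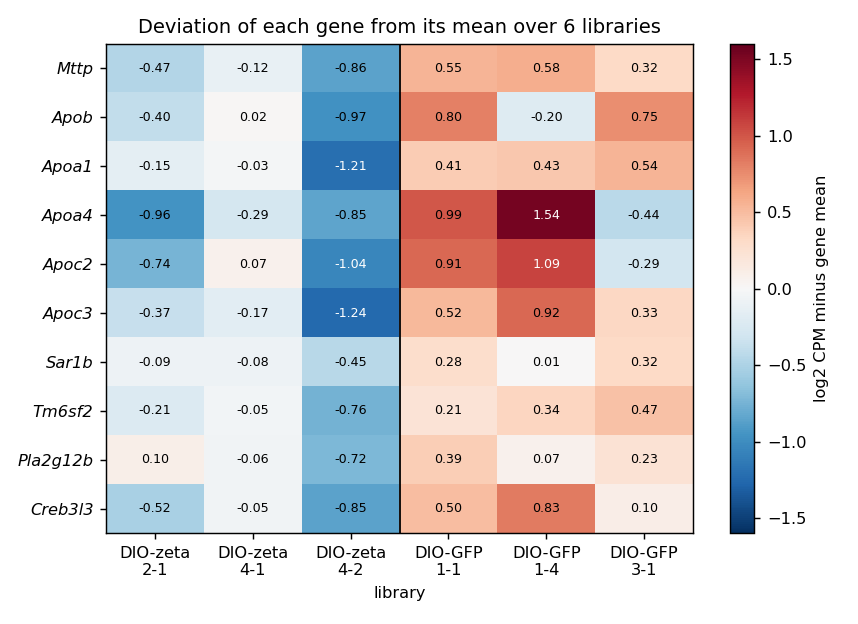
Deviation of each gene's log2 CPM from its mean over the 6 libraries (colour and printed value; rows are genes, columns are libraries, zeta-labelled left of the line). Zeta-labelled library 4-2 is the lowest column for 9 of 10 genes, and GFP-labelled library 3-1 is below 0 for Apoa4 and Apoc2.

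As a description over 6 libraries that share a group difference, Mttp, Apoc3 and Creb3l3 were most like the mean of the other 9 genes (Pearson r = 0.993, 0.976 and 0.965), and Apob (0.726) and Apoa4 (0.772) least. Among 8017 protein-coding genes outside the 10 with a mean of at least 10 CPM, the pattern most like the mean of the 10 belonged to Aldh4a1, a mitochondrial enzyme of proline breakdown (r = 0.9996), at 18.5 ± 7.61 CPM in zeta-labelled and 49.0 ± 9.41 CPM in GFP-labelled libraries. It was followed by Nat8f5 (r = 0.994), Gramd1c (0.989), Enpp7 (0.988), Slc9a3r1 (0.988) and Epb41l3 (0.984). Enpp7, the intestinal alkaline sphingomyelinase, averaged 90.7 ± 71.7 CPM in zeta-labelled and 531 ± 199 CPM in GFP-labelled libraries. Slc9a3r1, a scaffold protein of the microvillus, averaged 544 ± 99.9 CPM in zeta-labelled and 795 ± 85.7 CPM in GFP-labelled libraries.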

How the data were processed

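Total RNA of mouse small intestine was sequenced in 6 libraries, 3 labelled DIO-zeta and 3 labelled DIO-GFP. Per the labels' protocols, RNA was column purified, depleted of ribosomal RNA and made into stranded libraries. FastQC, Trimmomatic, HISAT2, StringTie and build mm10 are named, per the submitters' processing notes, without versions; the counting program and its use of strand are not given in the sources used here. Per the file headers, the authors deposited counts, FPKM and TPM for every gene in each library. The deposited counts are whole and not normalised, and were tested. The deposited TPM values, scaled to length and to a fixed sum, gave levels between genes and an alternative test. The deposited FPKM values served only to check the order of levels.

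Counts of 18456 genes kept by edgeR's filterByExpr were scaled by TMM and tested with the robust quasi-likelihood test (edgeR 4.0.16, R 4.3.3), with Benjamini-Hochberg adjustment over all tested genes and a threshold of 0.05. The SE is the fold change divided by the root of F. CPM use the TMM factors, and log2 CPM a prior count of 2. Single values were compared by exact two-sided permutation tests. Alternatives used DESeq2 1.42.0, limma 3.58.1, other scalings and filters, TPM, and each library left out. Total counts per library, 77573133 to 93742978, make counting error small beside the spread between libraries for the 10 genes. This does not hold for genes with few reads, such as F2 with 0 to 16 reads per library. Coordinates, neighbours and promoter windows come from RefSeq tables of GRCm38.p6, and exons from GENCODE M21. Overlapping or antisense genes were checked for the 10 genes only.

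The 10 genes and all lists were chosen with earlier results of these data known. The text names the 10 genes, Prkcz, up to 4 genes of each further list with the smallest p among those whose ranges do not overlap, Apoe, Apobec1, P4hb, Sar1a and Hnf4a in any case, and the 6 genes most like the mean of the 10 by Pearson r.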

Additional observations from a re-analysis of the deposited data

How the results depend on the processing

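Over 16 alternatives per gene, all 160 fold changes of the 10 genes were below 0. Of the 18456 genes tested, DESeq2 called 76 and, of the 10, 1 (Mttp), where edgeR called 0. DESeq2 gave no adjusted p for 2175 genes. Without each library in turn, the median of the 10 ranged from -1.16 (without zeta-labelled library 4-1) to -0.72 (without 4-2), and it was -0.71 on log2(TPM + 1). The number lower without overlap, a count added after seeing the data, was 4 on TPM, beside 2.00% of all genes and 4.02% of the 4229 abundant genes. With a library left out it was 6 to 9, beside 7.70% to 13.2% of all genes and 14.5% to 24.1% of the abundant genes. The 9, without zeta-labelled library 4-1, stand beside 8.71% of all genes and 18.7% of the abundant genes. Fold changes that moved over 1.5 times were those of Apoa4 and Apoc2 (voom with quality weights), Sar1b and Pla2g12b (TPM), and Apoa1 and Pla2g12b (without zeta-labelled library 4-2). Apoa4 was the most negative in 14 of the 16 alternatives. TPM fits moved the median of all genes to 0.14 and 0.23, and the fold changes of the 10 stayed below those medians. Prkcz turned to 0.053 and 0.055 on log2(TPM + 1) and log2(TPM + 0.1), and ranged from -0.35 to 0.047 with a library left out. Relative to the epithelial genes with a library left out, the median difference ranged from -0.95 to -0.45. The number without overlap then ranged from 4 to 7, beside 1.93% to 5.55% of all genes tested and 2.58% to 7.99% of the abundant genes. Relative to Vil1 or Epcam alone that number was 3, with 9 and 10 genes lower. Beside it stood 0.444% and 1.16% of all genes tested, and 0.615% and 2.22% of the abundant genes. Relative to 14 enterocyte markers it was 0 and the median difference was -0.021; 2 scales added after seeing the data, the 13 markers other than Lct and the median of the 14, gave -0.23 and -0.19. No paired analysis was possible because the groups share no replicate numbers. The common biological coefficient of variation was 0.354; what limits the number of calls (depth, number of libraries or test) was not compared.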

Other observations

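Trmt10a, which lies head to head with Mttp with 30 bases between the annotated starts, did not share the lower level of Mttp. It had 1.85, 2.45 and 4.54 CPM in zeta-labelled libraries 2-1, 4-1 and 4-2, against 1.49, 1.94 and 1.72 CPM in GFP-labelled libraries 1-1, 1-4 and 3-1, a log2 fold change of 0.78 (SE 0.38, unadjusted p = 0.0734, edgeR). The groups overlapped at this low level, and the gene was chosen for its position after values were seen.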
